A study of Homo sapiens with 120 samples.

Results

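The response of Ago-bound microRNAs (miRNAs) to long double-stranded RNA (dsRNA) was measured in 24 small RNA libraries of 1 experiment, out of 120 libraries in the whole series. They were chosen by their labels alone: all libraries of the first experiment made from Ago pulldown, 16 from cells given long dsRNA and 8 from mock-transfected cells. The cells were HEK293T, a human embryonic kidney line, and every group, mock included, carried a knockout of PKR, the kinase that dsRNA activates. The 4 cell lines were the PKR-knockout parent, labelled Parental, and derived lines labelled PACTko, TRBPko and PACT_TRBPko, which lack PACT, TRBP or both. Each line was transfected with a lipid reagent and received no dsRNA (mock) or 1 of 2 long dsRNAs labelled dsGFPc and dsGFPd. This gave 12 groups of 2 libraries, or 2 mock and 4 dsRNA libraries per line. Each line stands for its genotype, and the labels do not say whether a line is 1 clone or whether replicates were grown as separate cultures; a p-value then measures the spread among these libraries, which may be technical. What a knockout does and how the lines differ otherwise cannot be told apart.

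A miRNA is cut from a hairpin precursor, first by Drosha in the nucleus and then by Dicer, and 1 arm of the hairpin, named 5p or 3p, is loaded into an Argonaute (Ago) protein, which it guides to messenger RNAs through its seed, bases 2 to 8. Dicer works with the dsRNA-binding proteins PACT and TRBP. Long dsRNA is a sign of virus infection: sensors of the RIG-I family and PKR detect it and switch on interferon and NF-kB signalling, and Dicer can cut it into small interfering RNAs. The libraries held RNA copurified with Ago by a peptide that binds these proteins. A value is thus a scaled read count of a mature miRNA bound to Ago, a relative and not an absolute amount. How the values were scaled is not given, and their sum over miRNAs ran from 748804 to 952259 among the pulldown libraries.

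The sequences are shown because the results turn on these miRNAs. They are mature sequences from RefSeq (GRCh38.p14), 5′ to 3′, with the seed in capitals, and 726 of the 897 miRNAs tested had an entry. The first group comes from hairpins within interferon-stimulated genes.
miR-10399-3p: cUCUCGGAcaagcuguagguc
miR-10399-5p: aAUUACAGauugucucagaga
miR-3614-5p: cCACUUGGaucugaaggcugccc
miR-6891-5p: uAAGGAGGgggaugagggg

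The next group had few or no reads in mock libraries and came from other hosts.
miR-4658: gUGAGUGUggauccuggaggaau
miR-4657: aAUGUGGAaguggucugaggcau
miR-4800-3p: cAUCCGUCcgucuguccac

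The next sequences are abundant or moderately abundant miRNAs that rose, set beside relatives with the same seed or beside the other arm of the hairpin, so that shared seeds can be seen. miR-449c-5p, from the cluster of miR-449a, has a different seed.
miR-27b-3p: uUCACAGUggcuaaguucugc
miR-27a-3p: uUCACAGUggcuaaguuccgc
miR-27b-5p: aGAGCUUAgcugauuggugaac
miR-296-3p: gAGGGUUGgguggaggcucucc
miR-296-5p: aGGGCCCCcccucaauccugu
miR-449a: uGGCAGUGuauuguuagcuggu
miR-34a-5p: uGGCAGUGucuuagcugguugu
miR-449b-5p: aGGCAGUGuauuguuagcuggc
miR-449c-5p: uAGGCAGUguauugcuagcggcugu
miR-181a-5p: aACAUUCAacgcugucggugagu
miR-181c-5p: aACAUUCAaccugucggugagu
miR-181b-5p: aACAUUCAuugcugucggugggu
miR-181d-5p: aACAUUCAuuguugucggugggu

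The last sequences belong to miRNAs that fell, with miR-221-3p, which shares its seed with miR-222-3p and did not pass the test.
miR-222-3p: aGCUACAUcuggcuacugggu
miR-221-3p: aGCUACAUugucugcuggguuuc
miR-222-5p: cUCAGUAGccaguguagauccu
miR-1260b: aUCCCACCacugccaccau
miR-6717-5p: aGGCGAUGuggggauguagaga

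Levels are given as the deposited normalised counts of each mature miRNA, from which whole reads could be recovered. The pulldown libraries held 2457547 to 13457933 miRNA reads, and mock libraries were deeper, with a median of 6357906 against 4752134 for dsGFPc and 4325320 for dsGFPd. In these libraries 1 read corresponds to a level of 0.06 to 0.3047. The labels' tissue was checked against 9 miRNAs of the embryonic kidney line, whose summed level was 267000 to 349000 in mock and 260000 to 357600 with dsRNA, and against 20 miRNAs that mark other cell types, which summed to 1895 to 2755 in mock and 1698 to 3170 with dsRNA, mostly miR-375-3p. Of the blood markers among the latter, miR-223-3p and miR-144-3p were at 0 in all 24 libraries and miR-451a and miR-142-3p at 0 in mock, while miR-142-5p had a mean of 2.06 and miR-150-5p of 2.54 in mock. The share of either list in the results below was not tested.

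Over the 4 lines, 158 of the 897 miRNAs tested (17.6%) passed at an adjusted p under 0.05 in limma, a linear model with cell line and transfection as terms. Of these, 69 rose (7.69%) and 89 fell (9.92%), and 32 that rose and 22 that fell changed by at least 2-fold. The split turned with the method: 62 rose and 54 fell in edgeR, 74 and 69 in DESeq2, 71 and 69 after quantile normalization, and 70 and 76 with libraries of the same sum. Changes are differences of log2(normalised count + 1), which understate the change of miRNAs near 0, and the median over all 897 was -0.12. In 9 miRNAs (1%) every one of the 16 dsRNA libraries lay above all 8 mock libraries, and in 0 did all lie below. These were miR-10399-3p, miR-10399-5p, miR-3614-5p, miR-6891-5p, miR-4658, miR-27b-3p, miR-449c-5p, miR-18a-3p and miR-3200-3p. Among the 100 miRNAs of highest level, 23 rose and 13 fell, with a median of 0.03, while among the other 797, 46 rose and 76 fell, with a median of -0.15. The call count rested in part on the parental line: without its 6 libraries 60 were called (41 rose and 19 fell), and without Parental mock replicate 1 alone 100 were called.

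**Figure D1:**
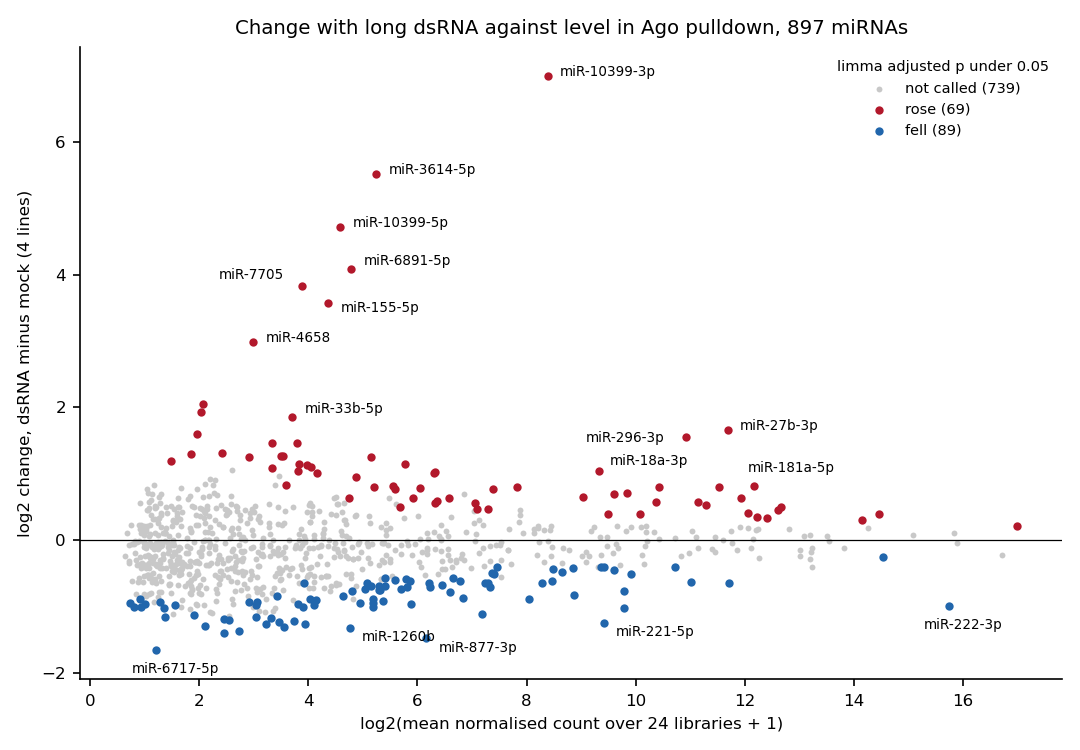
Each point is 1 of the 897 miRNAs tested in Ago pulldown, with the log2 of its mean normalised count over 24 libraries plus 1 on the x axis and its log2 change, dsRNA minus mock over the 4 lines, on the y axis. The 69 that rose are red and the 89 that fell blue; the miRNAs with changes above 2.5 have low to middling levels, while miR-27b-3p and miR-296-3p are abundant.

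Hairpins within interferon-stimulated genes gave the 4 largest changes on the log2(value + 1) scale. By the ratio of reads pooled over each group and scaled by its depth, miR-4657 (172), miR-4658 (87.2) and miR-7705 (55) exceeded miR-6891-5p (28.9). Of 9 mature miRNAs in the table whose hairpin lies in the span of such a gene, 5 passed the filter on low counts and 4 of these rose, with values from 4.08 to 6.99. The filter asked for 10 reads in 6 libraries, which miR-3614-5p, miR-10399-5p, miR-6891-5p, miR-7705, miR-155-5p, miR-4658, miR-4657, miR-4800-3p, miR-4512, miR-19a-5p and miR-3151-5p met only with the help of dsRNA libraries. miR-6717-5p, miR-6728-3p, miR-6812-5p and miR-3085-3p met it only with that of mock libraries. The choice of all these miRNAs for testing thus depended on the group where they were higher, so the count above and their p-values are descriptions. miR-10399 is encoded within ZC3HAV1, the gene of the antiviral protein ZAP, miR-3614 within TRIM25, the gene of a ubiquitin ligase that works with ZAP and RIG-I, and miR-6891 within HLA-B, a class I antigen-presenting gene. Each hairpin is on its host's strand.

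The 3p arm, miR-10399-3p, read, in the line order Parental, PACTko, TRBPko and PACT_TRBPko, 7.25 and 3.52, 5.11 and 0.714, 5.51 and 1.50, and 1.30 and 1.73 in mock. With dsGFPc it read 367 and 436, 875 and 537, 420.1 and 603, and 262 and 645, and with dsGFPd 433 and 545, 526 and 600.0, 380.5 and 461, and 314.5 and 565. All 16 dsRNA libraries lay far above every mock library. The ratio of pooled reads scaled by depth was 168, with a 95% counting interval of 146 to 194. The change was 6.99 (SE 0.225, limma adjusted p = 1.2e-22), and within lines it was 6.18, 7.59, 6.83 and 7.38.

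The 5p arm, miR-10399-5p, was lower in every library. In the same order it read 0 and 0, 0.243 and 0, 0 and 0.960, and 0 and 0.288 in mock, 16.5 and 20.45, 9.25 and 36.1, 15.55 and 39.4, and 23.1 and 41.4 with dsGFPc, and 34.7 and 52.25, 24.3 and 95.6, 24.3 and 33.2, and 22.3 and 58.8 with dsGFPd. The groups did not overlap, and the change was 4.72 (SE 0.30, limma adjusted p = 3.12e-14). Both arms of this hairpin thus rose.

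The value of miR-3614-5p in mock was 0.196 and 0.307, 0.365 and 0, 0 and 0.0600, and 0.711 and 0. With dsGFPc it was 56.7 and 45.2, 50.4 and 37.3, 69.96 and 46.3, and 27.1 and 38.7, and with dsGFPd 74.5 and 76.3, 83.2 and 62.3, 66.7 and 57.0, and 34.3 and 61.05. The groups did not overlap, and the 8 mock libraries together held 13 reads. The change was 5.51 (SE 0.21, limma adjusted p = 1.28e-20).

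In mock, miR-6891-5p was at 2.16 and 0, 0 and 0.714, 1.38 and 1.86, and 1.90 and 1.54. With dsGFPc it was at 30.9 and 33.3, 17.95 and 36.3, 24.9 and 25.9, and 15.6 and 77.4, and with dsGFPd at 35.15 and 51.8, 13.4 and 81.7, 18.1 and 41.7, and 25.8 and 95.35. The groups did not overlap, although the dsRNA libraries of PACTko and PACT_TRBPko spread widely, from 13.4 to 95.35. In every line and with either dsRNA, replicate 2 was above replicate 1. The change was 4.08 (SE 0.32, limma adjusted p = 7.05e-12). The fifth tested miRNA of this list, miR-7703 within PSME2, a proteasome activator subunit, had a median of 2.05 in mock and 2.12 with dsRNA and a change of 0.22 (limma adjusted p = 0.739, 95% interval -0.56 to 1.005).

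Other miRNAs with few or no mock reads followed on the log2(value + 1) scale. miR-7705 was at 0 and 0, 0.122 and 3.14, 0 and 0.0600, and 0 and 0 in mock, at 23.3 and 29.7, 8.34 and 28.5, 0 and 43.75, and 16.1 and 23.8 with dsGFPc, and at 21.6 and 22.1, 15.9 and 27.25, 9.225 and 13.9, and 18.6 and 23.8 with dsGFPd. All dsRNA libraries but 1, TRBPko dsGFPc replicate 1 at 0, lay above every mock library. The change was 3.835 (SE 0.43, limma adjusted p = 3.85e-08).

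The inflammatory miR-155-5p, whose host transcript MIR155HG is induced by NF-kB, ranged from 0 through a median of 0.120 to 4.60 in mock and from 1.73 through 28.6 to 81.7 with dsRNA. Within each line the 4 dsRNA libraries lay above both mock libraries, but over all lines the groups overlapped, since TRBPko dsGFPc replicate 1 (1.73) and TRBPko dsGFPd replicate 2 (3.95) were below the highest mock library, in the parental line. The change was 3.57 (SE 0.43, limma adjusted p = 1.48e-07).

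miR-4658, whose hairpin (chromosome 7, 100156605 to 100156669) lies within TRAPPC14, had reads in 2 of 8 mock libraries, with a highest value of 0.714, and in all 16 dsRNA libraries, from 2.25 through a median of 7.71 to 41.4. The groups did not overlap. The change was 2.98 (SE 0.38, limma adjusted p = 6.16e-07). miR-4657, within PURB (chromosome 7, 44881748 to 44881800), had 2 reads in the 8 mock libraries, both in PACTko replicate 2, and 434 reads in 15 of the 16 dsRNA libraries. Its ratio of pooled reads scaled by depth was 172 with a 95% counting interval of 47.3 to 1422, and its fitted change was 2.05 (limma adjusted p = 0.00103). miR-4800-3p, within MXD4 (chromosome 4, 2250077 to 2250156), had no read in any mock library and 329 reads in 14 dsRNA libraries, at least 86.8-fold higher when 3 reads over the mock group are taken as the floor (limma adjusted p = 0.00238). Intervals and floors cover counting error only.

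**Figure D2:**
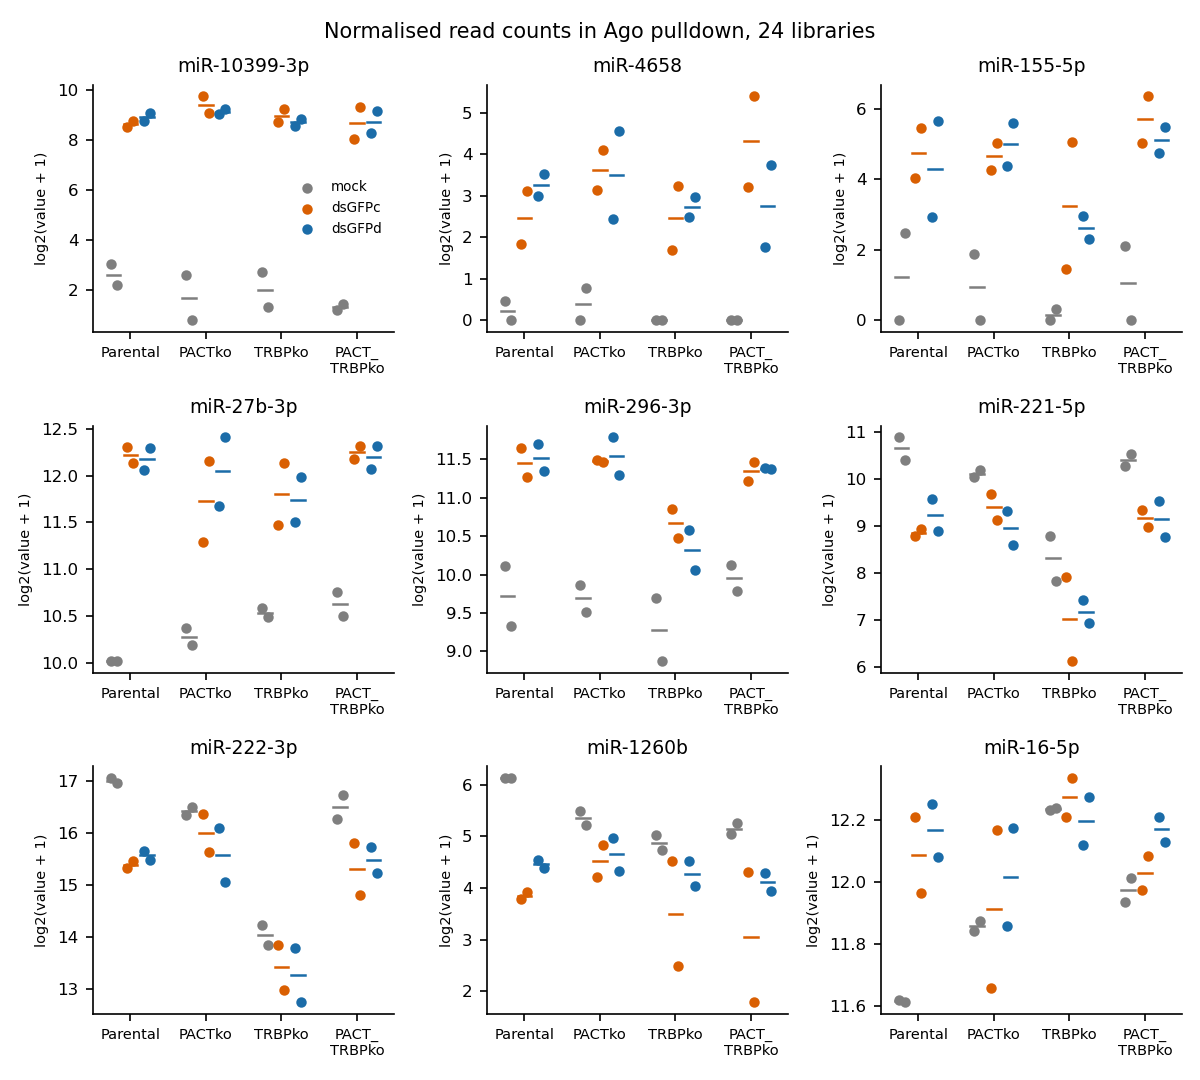
Each point is 1 of 24 pulldown libraries, with log2(normalised count + 1) on the y axis (scales differ between panels and need not start at 0), cell lines on the x axis and the transfection by colour; short bars are means of the 2 libraries. Mock lies below dsRNA in each line for miR-10399-3p, miR-4658, miR-155-5p, miR-27b-3p and miR-296-3p, above it in each line for miR-1260b, and overlaps it in 3 lines for the pulldown control miR-16-5p.

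Among abundant miRNAs, miR-27b-3p and miR-296-3p changed most. miR-27b-3p, a widely expressed miRNA linked to lipid metabolism (MIR27B, chromosome 9, 95085445 to 95085541, within AOPEP), ranged from 1033 through a median of 1379 to 1733 in mock and from 2514 through 4499 to 5467 with dsRNA. The groups did not overlap, and the lowest mock values were both in the parental line. The change was 1.66 (SE 0.13, limma adjusted p = 6.32e-12). miR-27a-3p, with the same seed but from another cluster on chromosome 19, rose from a mean of 47.3 to 94.2, by 1.03 (limma adjusted p = 0.000193).

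miR-296-3p (chromosome 20, 58817615 to 58817694) ranged from 467 through 853 to 1118 in mock and from 1062 through 2623 to 3546 with dsRNA. Only TRBPko dsGFPd replicate 2 lay within the mock range, and in each line all dsRNA libraries were above both mock libraries. The change was 1.55 (SE 0.13, limma adjusted p = 2.57e-11).

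Further miRNAs whose groups did not overlap were of lower level or smaller change. miR-449c-5p, from a cluster within CDC20B that is known from multiciliated cells, ranged from 15.3 through 30.7 to 40.7 in mock and from 44.1 through 61.3 to 91.1 with dsRNA, a change of 1.15 (limma adjusted p = 3.85e-06). miR-18a-3p, the 3p arm of a miR-17-92 hairpin (chromosome 13, 91350751 to 91350821), ranged from 267 through 379.5 to 449 and from 462 through 730 to 1200, a change of 1.045 (limma adjusted p = 8.42e-05). miR-3200-3p, within OSBP2, ranged from 1.58 through 5.30 to 7.47 and from 7.84 through 11.3 to 24, a change of 1.27 (limma adjusted p = 0.00142). In each of these the highest mock library came close to the lowest dsRNA library.

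Members of 1 seed did not all pass together. Among the 726 tested miRNAs with a sequence, which leave out tested relatives such as miR-34c-5p and miR-93-5p, seeds shared by 3 or more formed 15 groups, of which 9 had a member called, 4 had at least 2 that rose and 0 had members in both directions. In the miR-181 group, which is known for its part in lymphocyte development, miR-181a-5p rose by 0.80 and miR-181c-5p by 1.02, whereas miR-181d-5p (0.19, adjusted p = 0.429) and miR-181b-5p (0.14, adjusted p = 0.32) did not pass in limma. In the group of the p53-induced miR-34a-5p, miR-449a rose by 1.25 and miR-34a-5p by 0.79, and miR-449b-5p had a mean under 2 in both groups and a value of 0.49 (limma adjusted p = 0.401). The let-7 group, which restrains growth genes, had 9 members, 0 called (1 fell after quantile normalization), and values from -0.40 to 0.13. Differences between members of a seed were not tested.

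The other miRNAs that rose among the 20 of largest change were at lower levels. miR-33b-5p, encoded within SREBF1, the gene of a regulator of sterol and fat synthesis, rose from 4.25 ± 3.84 to 15.9 ± 7.99 (SD, 8 and 16 libraries), by 1.85 (limma adjusted p = 0.000404), and its change was 3.56 in the parental line and 0.70 in TRBPko. miR-3663-3p rose by 1.47, miR-4512 by 1.60, miR-32-5p by 1.27, miR-449a by 1.25 and miR-3936 by 1.25. The calls of miR-19a-5p (1.32) and miR-3151-5p (1.30) were each lost in edgeR and held in 20 and 19 of 24 fits without 1 library, and miR-32-5p and miR-3936 lost their calls without the parental line, miR-3936 also in 4 other alternatives.

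The miRNAs that fell did so by less. The largest falls with the same sign in each line were those of miR-6717-5p, miR-877-3p, let-7e-3p, let-7a-3p, miR-1260b, let-7c-3p, miR-6767-5p, miR-4665-5p, miR-6747-5p and miR-221-5p, from -1.66 to -1.25. Of these, miR-221-5p had a mean of 1104 and miR-877-3p of 110.5 in mock, and the means of the others lay between 3.13 and 43.04. miR-6717-5p, within NDRG2, ranged from 1.72 through 2.87 to 5.09 in mock and from 0 through 0 to 3.11 with dsRNA, with overlap (limma adjusted p = 0.00031). The calls of let-7e-3p, let-7a-3p, let-7c-3p, miR-6767-5p and miR-6747-5p were lost in edgeR, and that of miR-6767-5p held in 10 of 24 fits without 1 library. miR-877-3p lost its call with a pseudocount of 0.1, with dsGFPd alone against mock and without the parental line. miR-4665-5p also lost its call without the parental line.

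The cluster of miR-221 and miR-222 on the X chromosome, known for raising proliferation by repressing a cell cycle inhibitor, held the most abundant miRNA that fell. Of its 4 arms, 3 fell and 0 rose, against 9.92% fallen among all tested. miR-222-3p was at 136800 and 126900 in parental mock and at 40970 to 51460 with dsRNA there, at 83490 and 92550 against 34290 to 84720 in PACTko, at 19210 and 14800 against 6873 to 14740 in TRBPko, and at 78710 and 108100 against 28750 to 57370 in PACT_TRBPko. The groups did not overlap within 3 of the lines, and TRBPko was lower than the other lines in mock and with dsRNA alike. The change was -0.99 (SE 0.17, limma adjusted p = 0.000198), a call that edgeR made (adjusted p = 0.000415) and DESeq2 did not (adjusted p = 0.107). miR-221-5p fell by 1.25 (limma adjusted p = 3.85e-06), from 1104 ± 541 to 467 ± 228, and miR-222-5p by 1.115 (limma adjusted p = 0.0176), a call that edgeR and DESeq2 also made. miR-221-3p, with the seed of miR-222-3p, was at 4280 in mock and 4663 with dsRNA (0.03, interval -0.23 to 0.28, limma adjusted p = 0.906).

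Within each of the 4 lines, 8 miRNAs (0.892%) had all 4 dsRNA libraries below both mock libraries, and 13 (1.45%) had all 4 above. Those below were miR-454-5p, miR-7706, miR-1260b, miR-3911, miR-3909, miR-941, miR-500a-3p and miR-346. miR-1260b, an entry that overlaps a tRNA-like sequence, was at 69.2 and 69.1 in parental mock and at 12.7 to 22.3 with dsRNA there, and over the other lines at 25.6 to 43.7 in mock and at 2.44 to 30.2 with dsRNA. It fell by 1.33 (SE 0.26, limma adjusted p = 0.000493). miR-454-5p fell by 0.82 (limma adjusted p = 1.04e-05) and miR-7706 by 0.77 (limma adjusted p = 1.53e-05).

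Counts by group of miRNAs, set against 7.69% risen and 9.92% fallen among all tested, were as follows. Of 12 tested inflammation-linked miRNAs, 4 rose and 0 fell, with a median of 0.36: besides miR-155-5p these were miR-212-3p (1.13, from a CREB-driven cluster), miR-21-5p (0.53) and miR-146a-5p (0.51, a feedback inhibitor of NF-kB signalling). Of 10 p53-linked miRNAs 3 rose and 0 fell, with a median of 0.50. These were miR-449a, miR-34a-5p and miR-192-5p, the last from 5183 ± 1701 to 7165 ± 1496. Activity of p53 was not measured. Of 4 miRNAs reported for interferon-beta in liver cells, 1 rose, miR-296-3p, and 0 fell, with a median of 0.12. Of 11 guide strands of the miR-17-92 and paralog clusters, which promote growth, 4 rose and 0 fell, with a median of 0.23: miR-19a-3p (0.72), miR-19b-3p (0.70), miR-20a-5p (0.57) and miR-93-5p (0.33). Over the scalings tried, 4 or 5 of the inflammation-linked miRNAs rose, with a median from 0.35 to 0.40. Among them miR-155-5p met the filter on low counts only with the help of dsRNA libraries. The lists were also chosen with earlier results of these data known, so all counts by group are descriptions.

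The remaining groups had few calls. Of 12 miRNAs listed as mirtrons, a class that splicing rather than Drosha releases, 3 fell and 0 rose, with a median of -0.52. Those that fell were miR-877-3p, miR-1226-3p (-0.999) and miR-1226-5p (-0.96). How each listed miRNA is released was not tested. Of 6 Drosha-independent miRNAs, 1 fell, miR-484 (-0.44), a call made with the deposited scaling and with none of the other scalings. Of 7 entries that overlap snoRNA or tRNA, 1 fell, miR-1260b. Among the 9 kidney line miRNAs 3 rose, miR-21-5p, miR-7-5p (0.40) and miR-10b-5p (0.21), and among 11 tested markers of other cell types 1 rose, miR-141-3p (1.46, limma adjusted p = 0.0291), which edgeR did not call. Of the pulldown controls, miR-21-5p rose by 0.53 (limma adjusted p = 0.00238) and miR-16-5p had a value of 0.19 (interval 0.002 to 0.37, limma adjusted p = 0.169), or -0.02 after quantile normalization.

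The calls of both arms were compared within hairpins. Of 211 hairpins with both arms tested, both rose in 3 (miR-10399, miR-19a and miR-625), both fell in 3 (miR-222, miR-342 and miR-1226), and in 2 the 5p arm rose and the 3p arm fell (miR-181a and miR-93). In 29, 1 arm rose and the other did not pass, in 41, 1 arm fell and the other did not pass, and in 133 neither passed. Over all tested miRNAs 17.6% were called, so few hairpins with both arms called would be found even if arms were unrelated. These counts thus do not show that arms change apart. miR-27b-3p rose by 1.66, while miR-27b-5p was at 109 ± 13.7 in mock and 121 ± 23.5 with dsRNA (0.12, interval -0.15 to 0.40, limma adjusted p = 0.574). Its neighbours in the same cluster, miR-23b-3p (-0.38, adjusted p = 0.0777) and miR-24-3p (-0.10, adjusted p = 0.608), also did not pass in limma. miR-296-5p, the other arm of miR-296-3p, was at 29.98 ± 11.1 in mock and 28.5 ± 8.41 with dsRNA (-0.05, interval -0.45 to 0.35, limma adjusted p = 0.898). In the miR-17-92 cluster miR-18a-3p (1.045) and miR-17-3p (0.77) rose, while miR-18a-5p (-0.11) and miR-17-5p (0.14) did not pass. The interval of each of these arms that did not pass excluded the change of its partner in the miR-27b and miR-296 hairpins; the difference between arms itself was not tested.

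**Figure D3:**
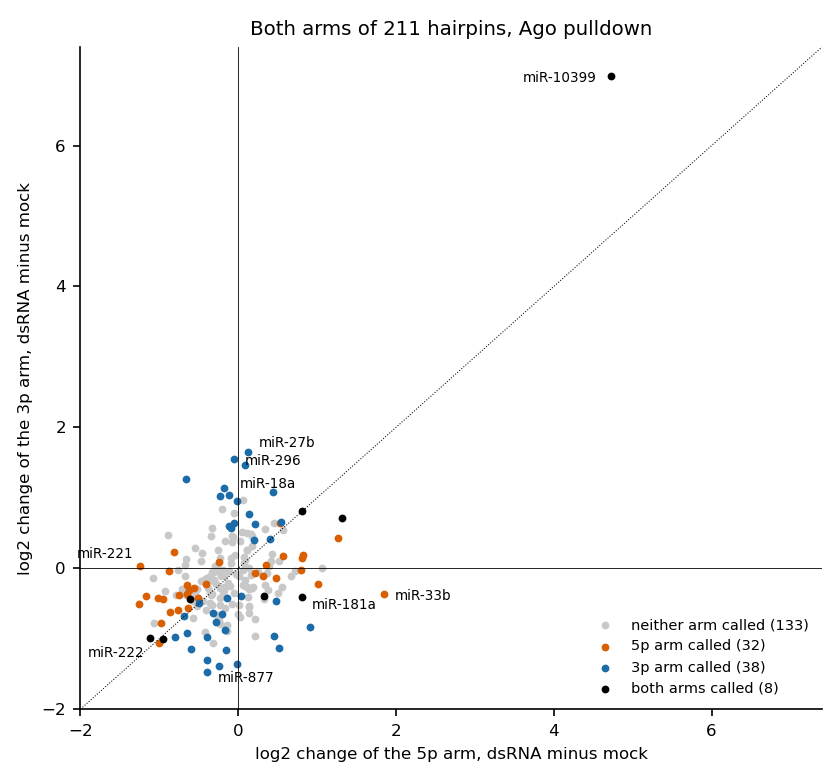
Each point is 1 of 211 hairpins with both arms tested, with the log2 change of the 5p arm on the x axis and that of the 3p arm on the y axis (dsRNA minus mock in pulldown); colours mark which arms passed at an adjusted p under 0.05, and the dotted line marks equal changes. In 8 hairpins both arms were called, in 32 the 5p arm alone and in 38 the 3p arm alone, and miR-27b, miR-296 and miR-33b lie far from the dotted line.

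The response was also tested within each line, with 4 dsRNA against 2 mock libraries and a spread shared over all groups. In the parental line 92 of 897 miRNAs (10.3%) were called, 35 up (3.9%) and 57 down (6.35%). In PACTko 13 rose (1.45%), in TRBPko 6 (0.669%) and in PACT_TRBPko 11 (1.23%), and in these lines 0 fell in limma and edgeR, while DESeq2 called 4 down in PACTko, 0 in TRBPko and 2 in PACT_TRBPko, and quantile normalization 1 down in PACTko. The number at an unadjusted p under 0.05 was 240, 90, 55 and 93 in the 4 lines. In the parental line the split turned with the scaling: 46 rose and 33 fell when libraries had the same sum, 48 and 35 after quantile normalization, 52 and 31 in edgeR and 83 and 49 in DESeq2. The median over all miRNAs there was -0.29 with the deposited scaling, -0.15 with the same sum and -0.08 after quantile normalization, so a fall in this line is read against that shift.

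Called in each of the 4 lines were miR-10399-3p, miR-10399-5p, miR-3614-5p, miR-6891-5p, miR-27b-3p and miR-296-3p, which were also all 6 called in TRBPko. The changes of miR-27b-3p were 2.19, 1.61, 1.24 and 1.59 in the order Parental, PACTko, TRBPko and PACT_TRBPko, and those of miR-296-3p were 1.77, 1.82, 1.21 and 1.40. miR-155-5p and miR-4658 were called in all lines but TRBPko, where their changes were 2.79 and 2.59. Called in the parental line and not over the 4 lines, miR-6728-3p, miR-6812-5p, miR-6784-3p, miR-3192-3p and miR-3085-3p fell there by 2.21 to 2.54, from means of 3.645 to 16.96 in mock, and so rest on few reads. Of these, miR-6728-3p, miR-6812-5p and miR-3085-3p met the filter on low counts only with the help of mock libraries, so their calls are descriptions.

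Whether the lines responded unlike each other was tested directly with an F test over the differences between each knockout and the parental line. limma called 0 of 897 and edgeR 0. DESeq2 called 2, but by another test, a likelihood ratio test of the 12 groups against the terms of line and transfection. That test also takes in differences between dsGFPc and dsGFPd that vary by line. Before adjustment 64, 50 and 43 had a p under 0.05 in limma, edgeR and DESeq2. The smallest limma p was that of miR-8072, at 39 and 24.98 in parental mock and 7.499 to 14.1 with dsRNA, and at 11.97 and 6.91 in PACT_TRBPko mock and 19.7 to 41.7 with dsRNA. It fell by 1.41 in the parental line and rose by 1.715 in PACT_TRBPko, with groups that did not overlap in either. The limma test by line gave it an adjusted p = 0.335. With 4 against 2 libraries per line, a different number of calls is not a difference in response, and the line counts depended on single libraries: 27 were called in the parental line without its mock replicate 1, 39 without its mock replicate 2 and 55 without its dsGFPc replicate 1.

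**Figure D4:**
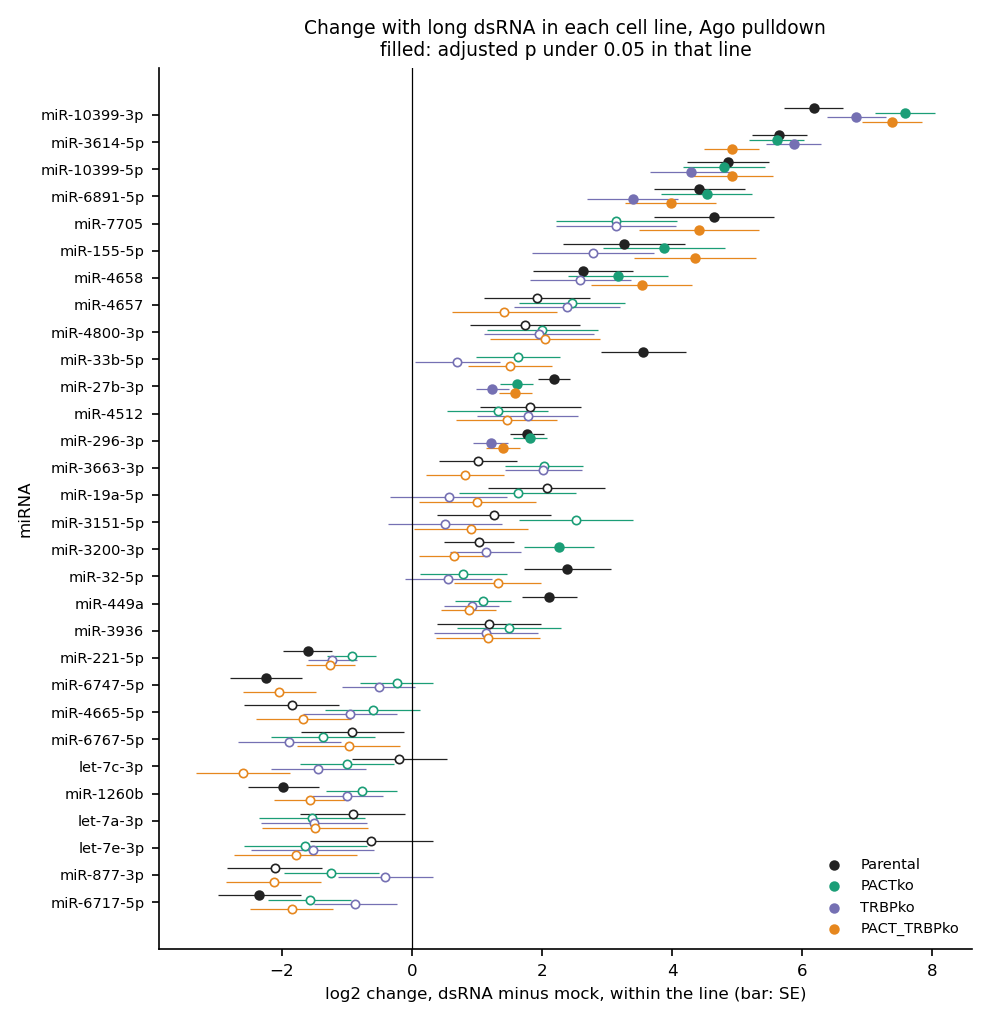
The log2 change, dsRNA minus mock in pulldown, is on the x axis for the 20 miRNAs that rose and 10 that fell most with the same sign in each line; colours are cell lines, bars are 1 SE, and filled points passed at an adjusted p under 0.05 within that line. The 4 lines lie between 4.30 and 4.93 for miR-10399-5p and between 1.21 and 1.82 for miR-296-3p, while miR-33b-5p, miR-32-5p and miR-449a have their highest point in the parental line.

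The dsRNAs were compared with each other in the fit of all 24 pulldown libraries, so mock libraries entered the line terms and the spread. Between dsGFPd and dsGFPc limma called 0 of 897, edgeR 0 and DESeq2 0, and before adjustment 35, 19 and 29 had a p under 0.05. Against the same mock libraries dsGFPc gave 118 calls, 51 up and 67 down, and dsGFPd 98, 54 up and 44 down. The changes with dsGFPc and dsGFPd, which share their controls, were 7.02 and 6.965 for miR-10399-3p, 1.64 and 1.68 for miR-27b-3p, 1.57 and 1.53 for miR-296-3p, -1.26 and -1.24 for miR-221-5p and -1.65 and -1.001 for miR-1260b. The smallest p between the dsRNAs was that of miR-6819-3p, with means of 3.555 for dsGFPc and 9.785 for dsGFPd (difference 1.52, limma adjusted p = 0.444). A p that misses the threshold does not show that the dsRNAs act alike.

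Total RNA libraries of the same groups asked whether the change was also seen without pulldown. There 94 of 422 miRNAs (22.3%) were called, 56 up (13.3%) and 38 down (9%). That split turned with the scaling, to 44 up and 56 down when libraries were scaled to 1 sum, and to 45 up and 50 down when quantile-normalized, and without replicate 2 it was 29 and 8. Of the 69 that rose in pulldown 58 could be tested in total RNA, where 52 had the same direction and 33 also rose. Of the 89 that fell 54 could be tested, 48 had the same direction and 21 also fell, and 0 were called in the opposite direction. miR-10399-3p changed by 7.13 in total RNA, miR-3614-5p by 5.305, miR-7705 by 4.52, miR-155-5p by 1.95, miR-27b-3p by 1.05 and miR-296-3p by 0.79.

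The difference between the responses of the fractions was tested over 48 libraries and passed for 10 of 915 miRNAs (1.09%), of which 4 (0.437%) had the higher response in pulldown and 6 (0.656%) the lower. The abundant ones in pulldown were miR-27b-3p, miR-296-3p and miR-221-5p. Of these, miR-27b-3p and miR-296-3p rose in both fractions and by more in pulldown, with differences of 0.61 (limma adjusted p = 0.0219) and 0.76 (limma adjusted p = 0.00135). In total RNA miR-27b-3p went from 2922 to 6121 and miR-296-3p from 667 to 1170. miR-625-5p went from 23.25 to 42.4 in pulldown and from 63.2 to 61.1 in total RNA (difference 0.87, limma adjusted p = 0.0191), and miR-641 from 99.5 to 148 and from 116 to 99.0 (0.82, limma adjusted p = 0.0191). miR-221-5p fell more in pulldown than in total RNA, where it went from 1282 to 1107 (difference -1.004, limma adjusted p = 0.00151), and miR-1260b went from 15.1 to 16.7 there (difference -1.40, limma adjusted p = 0.0142).

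Other entries were at low level in 1 of the fractions. miR-1248 and miR-3651, which overlap snoRNAs, rose in total RNA from 14 to 146 and from 119 to 509, while in pulldown they were at 0.150 and 0 in mock and at 0.113 and 0.377 with dsRNA (differences of -3.04 and -1.75). miR-6717-5p (-2.01) and miR-642a-3p (-2.29) fell in pulldown, and in total RNA they went from 0 to 0.514 and from 2.21 to 6.499 and did not pass the filter on low counts. The calls moved with scaling, to 11 higher and 6 lower in pulldown when libraries were scaled to 1 sum, and to 13 higher and 8 lower when quantile-normalized. Without replicate 2 there were 0 higher and 2 lower, so miR-27b-3p and miR-296-3p were not called.

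**Figure D5:**
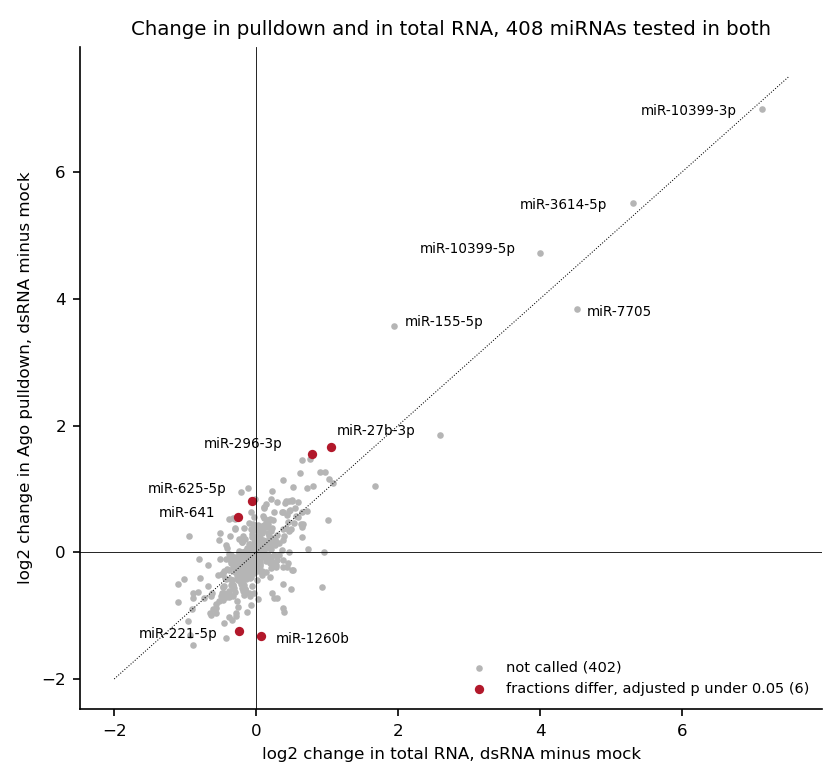
Each point is 1 of 408 miRNAs tested in both fractions, with the log2 change in total RNA on the x axis and in Ago pulldown on the y axis (dsRNA minus mock over the 4 lines); red marks the 6 of these whose responses differed between fractions at an adjusted p under 0.05, and the dotted line marks equal changes. miR-27b-3p and miR-296-3p lie above the line and miR-221-5p and miR-1260b below it.

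A second experiment gave 18 separate pulldown libraries with Dicer present, from the parental line and lines lacking Ago2 or Ago1 and Ago2, all with the PKR knockout, each with 2 mock and 4 dsRNA libraries. There 3 of 750 miRNAs (0.4%) were called, all risen: miR-10399-3p from 1.97 ± 1.48 to 138 ± 62.9 (SD, 6 and 12 libraries), miR-3614-5p from 0.167 ± 0.155 to 79.0 ± 58.6 and miR-3663-3p from 1.865 ± 2.73 to 24.7 ± 19.4. Of the 69 miRNAs that rose in the first experiment 65 could be tested, and 49 (75.4%) had a positive change, against 45.6% of all 750. Of the 89 that fell 82 could be tested, and 66 (80.5%) had a negative change, against 54.4% of all. Changes there were 1.27 for miR-27b-3p, 1.05 for miR-296-3p, 2.87 for miR-155-5p, -1.05 for miR-221-5p and -0.64 for miR-222-3p, none of them called after adjustment. Of the miRNAs named above for the largest rises and falls that could be tested there, 4 had the opposite sign. These were miR-3200-3p (-0.61), miR-19a-5p (-0.14), miR-877-3p (0.49) and miR-6747-5p (0.12), also not called. In that experiment miR-4658, miR-4657, miR-4800-3p, miR-6717-5p and miR-6767-5p did not pass the filter on low counts, so their changes could not be compared.

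The promoters of host genes were searched on both strands for the core of the interferon response element, GAAA followed after any 2 bases by a second GAAA, in RefSeq windows of 300 bases (250 before to 50 after the start, GRCh38.p14). The motif was in 1255 of 35116 windows (3.57%). Hosts searched were ZC3HAV1, TRIM25, HLA-B, PSME2, MIR155HG, PURB, MXD4, SREBF1, AOPEP, CDC20B, OSBP2, MIR17HG, MIR3663HG and TMEM245, but not TRAPPC14 or NDRG2. It was in the window of MIR155HG, host of miR-155-5p, and in that of PSME2, host of miR-7703, which was not called, and these letters were not in the other windows searched. The motif of MIR155HG, in capitals, begins 213 bases before the start, and the stretch around it on chr21:25561907-25561966 (plus strand) is shown because miR-155-5p rose.
MIR155HG: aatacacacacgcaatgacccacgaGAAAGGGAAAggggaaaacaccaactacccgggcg
A match is a description of the sequence, and binding there was not measured.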

How the data were processed

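The deposited tables hold normalised counts per mature miRNA (unit: signal) for each library, made from Lexogen small RNA libraries. Per the submitters' processing notes, STAR and GRCh38 were used; versions and the normalization are not given in the sources used here. Signal values in the deposited table are whole multiples of the worth of 1 read for 100% of values, with a tolerance of 0.01 of a read; these recovered reads served the filter and the count tests. Of 2883 rows 2652 names were kept, and 231 were set aside. No 2 libraries of a group were identical.

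Libraries were grouped by their labels. miRNAs with at least 10 reads in at least 6 libraries were tested on log2(value + 1), pseudocount 1, with limma 3.58.1 in R 4.3.3 (trend, robust), with line and transfection as terms and Benjamini-Hochberg adjustment over all miRNAs tested at 0.05. The contrast was the mean of dsGFPc and dsGFPd minus mock. Effects per line came from a fit of 12 group means, the test by line from its interaction, and the fractions from 48 libraries in 1 fit. Alternatives were edgeR 4.0.16 and DESeq2 1.42.0 on recovered reads, other scalings, filters and pseudocounts, thinning of all libraries to 2457547 reads (added after seeing the data), and leaving out each library. Total RNA libraries were shallower, at 406531 to 1104630 reads. The limma script was tested on simulated data. Sequences and hairpin positions came from RefSeq GRCh38.p14, and tables and figures were made with Python 3.11.15, pandas 2.3.3, scipy 1.17.1 and matplotlib 3.10.9.

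Named miRNAs were the 20 that rose and 10 that fell most among those called with the same sign in each line, up to 5 called within a line and not over the 4 lines, up to 10 called by each test of a difference, miR-16-5p and miR-21-5p, the tested miRNAs within interferon-stimulated genes, and examples of each list. Others named were chosen after their values were seen. The members and lists were chosen with earlier results of these data known. The deposited tables numbered 3, of which 2 were distinct; the third experiment was not analysed here.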

Additional observations from a re-analysis of the deposited data

Results flagged for a closer look

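Of 90 groups of 8 libraries of the named miRNAs, 9 held 1 library far from the other 7. The rule used flags about 1 in 20 groups drawn from 1 normal population. Each group here spans the 4 cell lines and some were mostly at 0, so that rate is not their chance rate. miR-3614-5p was at 34.3 in PACT_TRBPko dsGFPd replicate 1, with the other dsGFPd libraries at 57.0 to 83.2. In mock, miR-10399-5p was at 0.960 in TRBPko replicate 2 against 0 to 0.288 elsewhere, miR-7705 at 3.14 in PACTko replicate 2 against 0 to 0.122, and miR-4657 at 0.285 in PACTko replicate 2 against 0. miR-7705 was at 0 in TRBPko dsGFPc replicate 1, with the other dsGFPc libraries at 8.34 to 43.8. miR-3936 was at 0 in TRBPko mock replicate 1 against 1.70 to 4.44, and at 0.288 in TRBPko dsGFPc replicate 2 against 4.90 to 15.6. miR-877-3p was at 0 in PACT_TRBPko dsGFPc replicate 2 against 24.9 to 131, and let-7e-3p at 0 in Parental mock replicate 2 against 4.42 to 17.9.

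The response differed between pulldown and total RNA, by the test of that difference in limma, for 10 miRNAs. The difference, pulldown minus total RNA, was -3.04 for miR-1248, -2.29 for miR-642a-3p, -2.01 for miR-6717-5p, -1.75 for miR-3651, -1.40 for miR-1260b and -1 for miR-221-5p. It was 0.869 for miR-625-5p, 0.816 for miR-641, 0.757 for miR-296-3p and 0.605 for miR-27b-3p. miR-1248 and miR-3651 were near 0 in pulldown and miR-6717-5p near 0 in total RNA, so their differences restate the change in the other fraction.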

How the results depend on the processing

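With 2 libraries per group, over the fits that left out 1 library, calls ranged from 100 to 173 over the 4 lines, 27 to 110 in Parental, 6 to 15 in PACTko, 3 to 12 in TRBPko and 4 to 25 in PACT_TRBPko, and 0 to 0 for the test by line and between the dsRNAs. PACTko gave 8 calls without mock replicate 1, 7 without mock replicate 2, 6 without dsGFPc replicate 1, 7 without dsGFPc replicate 2 and 6 without dsGFPd replicate 2. TRBPko gave 12 without dsGFPc replicate 1 and 3 without mock replicate 2, and PACT_TRBPko 25 without dsGFPc replicate 1, 4 without mock replicate 2 and 7 without dsGFPc or dsGFPd replicate 2. Without 1 replicate number, total RNA gave 37 to 86 calls, the difference between fractions 2 to 7 and the second experiment 2 to 25, the extremes of 37, 2 and 25 being without replicate 2. A group left with 1 library is assumed to vary like the others.

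Over the 4 lines, 54 calls changed by at least 2-fold, an F test of both dsRNAs gave 101, dsGFPd against mock 98, and the fit without the parental line 60. PACTko gave 6 calls with libraries scaled to the same sum and 24 in DESeq2, and TRBPko 13 in DESeq2. The test by line gave 3 with no filter on low counts and 2 in the likelihood ratio test of DESeq2. The difference between fractions gave 17 with the same sum, 21 after quantile normalization and 17 with a pseudocount of 10. The second experiment gave 8 after quantile normalization. The cause of these moves was not tested. With all libraries thinned to 2457547 reads, an alternative chosen after seeing the data, 147 of 715 miRNAs were called, 140 of them shared with the 158. Of the 30 miRNAs named for the largest rises and falls, 0 reversed under the alternatives run, and 94 values lost the call; miR-16-5p, not called, went from 0.19 to -0.02 after quantile normalization.

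With the replicate number as a block, 177 were called over the 4 lines, 124 in Parental, 21 in PACTko, 7 in TRBPko, 16 in PACT_TRBPko and 20 in the second experiment. Deviations of same-numbered libraries had correlations from -0.0619 to 0.237 over 66 pairs of groups (median 0.0748), 45 of them at or under 0.1, so the numbers are not read as a pairing.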
